A study of Solenopsis invicta with 32 samples.

Results

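Each of 16 gynes, the young queens of the fire ant Solenopsis invicta, gave a brain and an ovary, and the question here was whether the organs of a single gyne deviate together from the average of their kind. All 32 libraries of the series were used, and a brain and an ovary library whose labels carry one colony code were paired as organs of 1 gyne. From each library's log2 CPM (counts scaled to a common library size) the mean of its group was subtracted, so that differences between group means entered no value. Differences in spread between organs and treatments were not removed. Brain and ovary deviations were then correlated over the 16 gynes. The members are the libraries and their pairs, and no treatment was contrasted with another.

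The 4 groups of 8 libraries were overwintered brains, overwintered ovaries, spring-reared brains and spring-reared ovaries. Every gyne came from a monogyne colony, which holds a single egg-laying queen, and had the SB/SB genotype at the social supergene, so these values say nothing of gynes with other genotypes or from polygyne colonies. Each colony gave 1 gyne, and gynes of different number are separate animals and colonies. All overwintered gynes have colony codes of one prefix and all spring-reared gynes of another, and what the prefix marks cannot be told apart from treatment. Libraries were made by Smart-seq2, which amplifies polyadenylated RNA from small amounts, out of 1.6 ng of total RNA for a brain and 8.0 ng for an ovary. Total counts ran from 9612985 to 23656547 per library over 16314 gene models, and 8613 genes passed a filter on low counts in both organs. The files give gene identifiers without names and 0 of them matched the reference gene table, so neither tissue could be checked against marker genes, and no role is given to any gene. In whole organs, fewer cells of a type and less RNA per cell cannot be told apart.

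As background, brain and ovary of an insect are built from different cells and carry out different programmes of transcription, the brain holding neurons and glia and the ovary germ cells with their follicle and nurse cells. They share a genome and are bathed by the same haemolymph, which carries hormones, nutrients and immune signals to both. A gene can therefore be high or low in both organs of an animal through its own sequence or through the state of the whole body, and equally its level in the brain can be unrelated to that in the ovary.

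Brain and ovary of the same gyne deviated together. Across 8613 genes, the correlation between a gyne's brain deviations and its own ovary's deviations averaged 0.145 ± 0.0929 (SD, n = 16; two-sided p = 1e-05 from 100000 permutations of the pairing within treatments, which cannot give a smaller one), and it was above 0 in 15 of 16 gynes. Genes with large deviations weigh most in this Pearson correlation. By Spearman the mean was 0.0863 (permutation p = 0.00087), and with deviations scaled to the same SD it was 0.0792 (permutation p = 0.00933). In the overwintered gynes the 8 Pearson values, in order of replicate number, were -0.049, 0.221, 0.114, 0.321, 0.033, 0.113, 0.184 and 0.255. In the spring-reared gynes they were 0.264, 0.123, 0.153, 0.108, 0.073, 0.112, 0.098 and 0.196. Overwintered gyne 4 was the highest of all and overwintered gyne 1 the only one below 0, and the ranges of the treatments overlapped. The mean was 0.149 ± 0.121 (SD, n = 8; exact permutation p = 0.000223) in overwintered and 0.141 ± 0.062 (SD, n = 8; exact permutation p = 2.48e-05, the smallest that 8 gynes allow) in spring-reared gynes.

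Brains were set against the ovaries of other gynes as the background of that value. A brain correlated with the ovaries of other gynes of its treatment at -0.0209 on average over 112 pairs, which ranged from -0.286 to 0.214, and removing group means makes this average slightly negative by construction. Pairs that share only a replicate number across treatments averaged -0.00597 over 16 pairs. Of the 16 brains, 12 had their highest correlation, among the 8 ovaries of the treatment, with their own, and in 15 it ranked first or second. That count was 8 of 16 by Spearman and 8 of 16 over the authors' listed genes, and 11 of 11 without the 5 gynes that had a library apart from its group in earlier results of these data (overwintered 1 and 5, spring-reared 4, 6 and 7). With those 5 gynes left out each brain had fewer than 8 ovaries to be ranked among, which makes a first rank easier. Seen from the ovary, the own brain ranked first in 14 of 16.

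**Figure D1:**
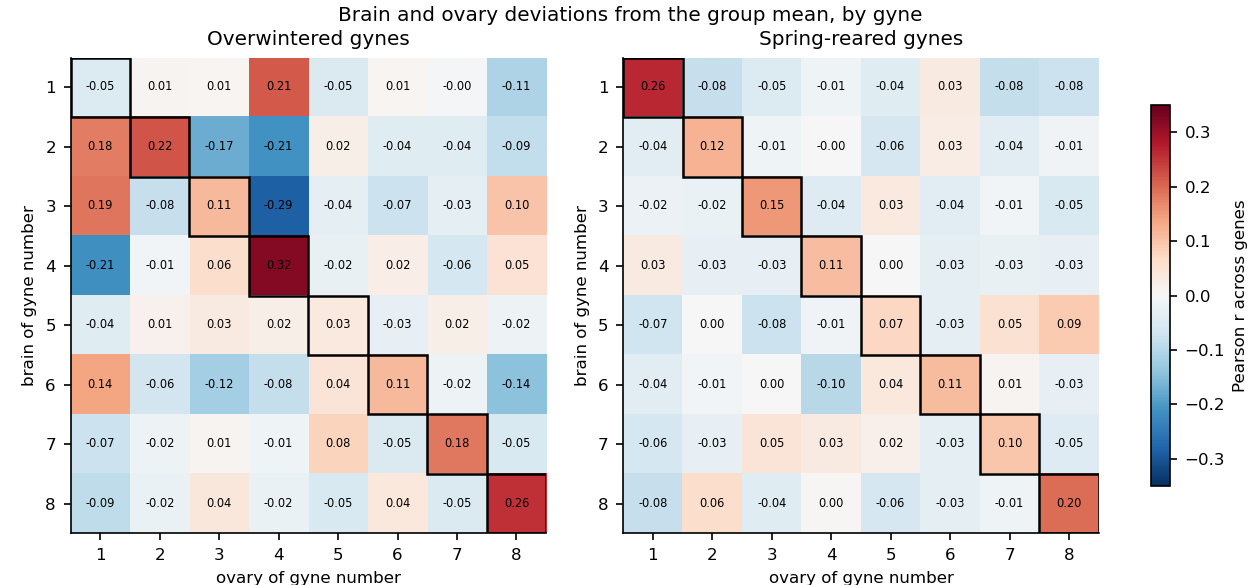
Pearson correlation across 8613 genes between each brain (vertical axis, gyne number) and each ovary (horizontal axis, gyne number) of the same treatment, as deviations from group means; framed cells on the diagonal are pairs from 1 gyne. The diagonal is above 0 in every frame but overwintered gyne 1, and the cells off the diagonal run from -0.286 to 0.214.

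The exception was overwintered gyne 1, whose brain ranked its own ovary 6th of 8 and correlated best with the ovary of overwintered gyne 4, at 0.214. Its brain had the fewest counts of all libraries (9612985) and the largest share of unmapped reads (26.8%), and 8.97% of the reads of its ovary fell outside gene models, the highest of the 16 ovaries. The brains of overwintered gynes 2, 3 and 6 correlated with the ovary of gyne 1 at 0.179, 0.187 and 0.137, more than with any other ovary not their own, and for gynes 3 and 6 more than with their own. The part of these library measures in the low value was not tested.

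Library measures also moved together in the organs of a gyne. Of 7 measures compared over 16 gynes as deviations from group means, total counts (log2) correlated at r = 0.730 (permutation p = 0.00314, adjusted p = 0.011) with rho = 0.688 (permutation p = 0.00643, adjusted p = 0.0225). The percentage of unmapped reads correlated at r = 0.805 (permutation p = 0.00041, adjusted p = 0.00287) with rho = 0.797 (permutation p = 0.00068, adjusted p = 0.00476). Without the 2 gynes farthest from the median these were r = 0.513 (permutation p = 0.0861) for total counts, which no longer passed over the other 14 gynes, and r = 0.651 (permutation p = 0.019) for unmapped reads. The number of genes detected correlated at r = 0.539 (permutation p = 0.0361, adjusted p = 0.0843) and did not pass. Without the 2 gynes farthest from the median its r was 0.714 (permutation p = 0.00442), and it passed without spring-reared gyne 3 (r = 0.604, permutation test, adjusted p = 0.0483) or 7 (r = 0.669, adjusted p = 0.0129). The lowest adjusted p of the other 4 was 0.301. Within treatments, unmapped reads correlated at 0.943 (exact permutation p = 0.00154) in the 8 overwintered and 0.630 (exact permutation p = 0.0938) in the 8 spring-reared gynes. The mean own-gyne correlation was 0.142 with counts thinned to the smallest library, 0.142 with deviations regressed on total counts and genes detected, and 0.133 with deviations regressed on unmapped reads (permutation p = 1e-05 in each). Whatever makes these measures move together was not tested. Handling that the organs of a gyne may share cannot be told apart from its biology in the own-gyne correlation. With 1 gyne per colony, differences between colonies cannot be told apart from differences between gynes either.

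The largest axes of variation within each organ were not detectably shared. The first 3 principal components of brain deviations held 14.5%, 13.7% and 10.9% of the variance, and those of ovary deviations 19.5%, 14.2% and 8.99%. Several were led by few libraries. Overwintered gyne 1 scored 62.4 on ovary component 1, where the other gynes lay between -16.1 and 6.69. On brain components 1 and 2, spring-reared gyne 7 scored 62.9 and -56.6 and spring-reared gyne 4 scored 46.6 and 60.3. Correlations of such axes say little about variation spread over many gynes. None of the 9 correlations between a brain and an ovary component passed (lowest adjusted p = 0.346, permutation test over 16 gynes), 1 of them had an unadjusted p under 0.05, and without spring-reared gyne 2 the number past the threshold was 1 (permutation, adjusted p = 0.0373). Brain component 1 and ovary component 1 correlated at r = 0.118 (permutation p = 0.239) and rho = -0.044 (permutation p = 0.864), and at r = 0.189 without the 2 gynes farthest out.

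Per gene, the correlation of brain with ovary deviations had a median near 0 and a long upper tail. The median r over 8613 genes was 0.047 (permutation p = 0.245). It was 0.0957 without overwintered gyne 1, where it passed the threshold (permutation p = 0.00369), and 0.0206 without spring-reared gyne 1 (permutation p = 0.645), 0.0307 without overwintered gyne 4 and 0.0306 without overwintered gyne 8. Over all 16 gynes, 55.6% of genes had r above 0, and the 5th and 95th percentiles were -0.434 and 0.589. There were 697 genes with r above 0.5 and 237 with r below -0.5. At an adjusted p under 0.05 (two-sided permutation test, Benjamini-Hochberg over all 8613 genes), 101 genes (1.17%) correlated positively and 3 (0.0348%) negatively, 1.21% in all. At an unadjusted p under 0.05 these were 631 (7.33%) and 207 (2.4%). The counts were 48 and 0 with deviations regressed on total counts and genes detected, and 39 of the 48 were among the 101. Without the 5 gynes named above they were 7 and 0, and 5 of the 7 were among the 101. At an unadjusted p under 0.05 they were 623 and 189 in the regression, and 731 and 99 over the 11 gynes left.

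The 101 positive genes had a median r of 0.893 (0.731 to 0.978) and a median rho of 0.841. These values chose the genes and are given as a description. All 101 had a positive r in each treatment, with medians of 0.910 over overwintered and 0.909 over spring-reared gynes, and 92 had an unadjusted p under 0.05 in each. In 9 of them 1 gyne gave over 50% of r. Without the 2 gynes farthest from the median in brain, their median r was 0.842 (0.625 to 0.996). The genes closest to the threshold had adjusted p of 0.0468 (r = 0.779) inside and 0.05 (r = 0.777) outside it (permutation test over 16 gynes).

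Genes that varied most between gynes made up most of the positive genes. Their median SD over gynes was 1.24 in brain and 0.96 in ovary on the log2 scale, against 0.40 and 0.26 over all genes tested. Of 447 genes with a geometric mean SD of 1 or more, 58 (13%) were positive, against 30 of 1948 (1.54%) between 0.5 and 1, 10 of 3511 (0.285%) between 0.25 and 0.5, and 3 of 2707 (0.111%) under 0.25. By level, 27 of 2427 genes (1.11%) with 1 to 10 CPM in the lower organ, 61 of 4475 (1.36%) with 10 to 100, 10 of 1544 (0.648%) with 100 or more and 3 of 167 (1.80%) under 1 CPM were positive. By organ, 88 of 6936 genes (1.27%) with levels within 4-fold between organs were positive, as were 10 of 931 (1.07%) at least 4-fold higher in brain and 3 of 746 (0.402%) at least 4-fold higher in ovary. These classes were chosen after the data were seen, and their shares have no test.

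Every gyne held positive genes far from the mean of its group. In each gyne, between 8 (spring-reared 6) and 31 (spring-reared 1) of the 101 genes lay more than 1 SD from the group mean in both organs, and every one of those deviated in the same direction in both, which the choice of genes with a positive r favours. Of the 5050 pairs among the 101 genes, 14 had a correlation above 0.8 with each other in both organs, and 7 of those 14 pairs lay within 10 rows of each other in the gene table, where 13 of all 5050 pairs lay that close. Of the 101, 22 (21.8%) lay within 10 rows of another positive gene, against 13% of all tested genes within 10 rows of a positive one. The labels do not say whether table order follows the genome. The 14 pairs held 19 of the 101 genes.

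The correlations were also read in gynes that did not choose the genes. Of 139 genes with positive r and unadjusted p under 0.01 in overwintered gynes, 118 (84.9%) had a positive r in spring-reared gynes, where 59.3% of all genes did. Among them 59 (42.4%) had a positive r with unadjusted p under 0.05 in spring-reared gynes, against 6.36% of all genes, and their median r there was 0.590 against 0.114 over all (exact permutation p = 2.48e-05, the smallest that 8 gynes allow). In the other direction, 180 genes chosen in spring-reared gynes had a median r of 0.519 in overwintered gynes against 0.006 over all genes (exact permutation p = 2.48e-05), 145 (80.6%) were positive against 50.4%, and 65 (36.1%) had an unadjusted p under 0.05 against 4.92%. With deviations regressed on total counts and genes detected, 76% of 146 genes chosen in overwintered and 72% of 107 chosen in spring-reared gynes were positive in the other treatment. Without the 5 gynes named above these shares were 75.7% and 77.6%. Without 1 gyne they ran from 78.2% to 85.6% and from 70% to 85.6%. The share over all genes is not given for these settings. For negative correlations the test did not pass in either direction. The 45 genes chosen for a negative r in overwintered gynes had a median of -0.071 in spring-reared gynes against 0.114 over all genes (exact permutation p = 0.402 for the median of the 45), and 26 of them (57.8%) were negative there, where 59.3% of all genes were positive, with 0 at an unadjusted p under 0.05 against 1.27% of all genes, and the 21 chosen in spring-reared gynes had a median of -0.003 in overwintered gynes against 0.006 over all (exact permutation p = 0.98) and 11 of them (52.4%) were negative there, with 2 (9.52%) at an unadjusted p under 0.05 against 3.01% of all genes.

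**Figure D2:**
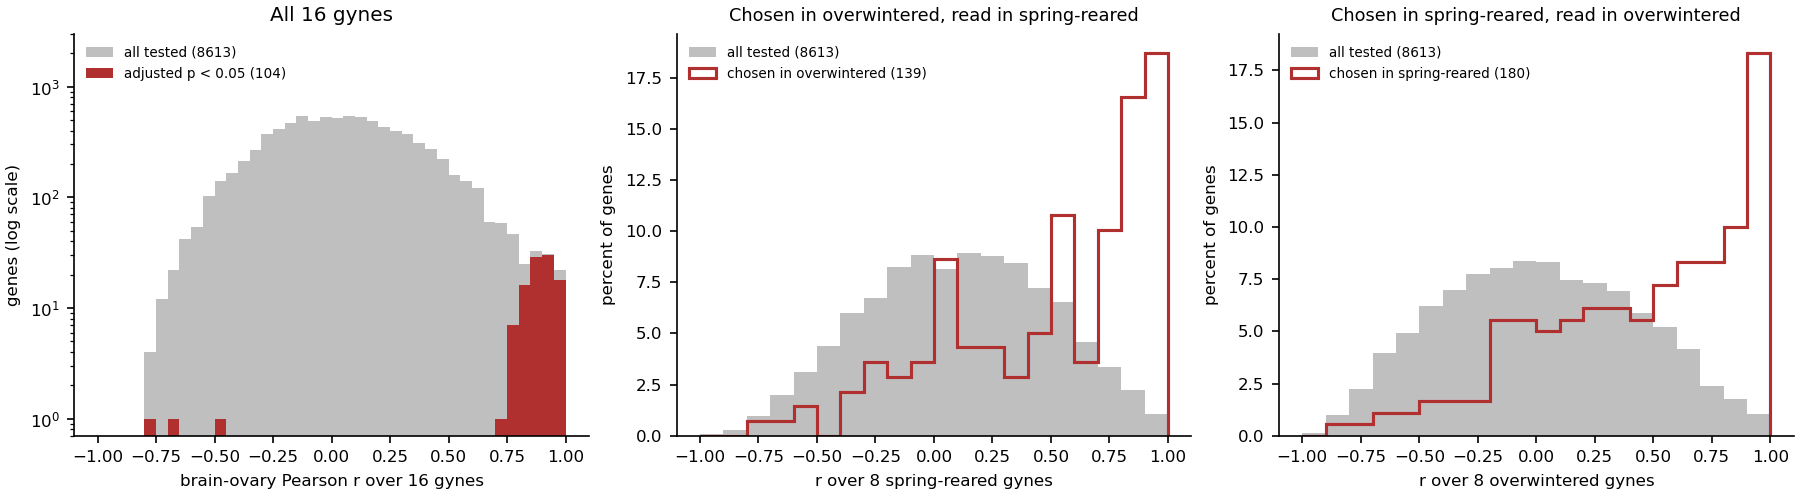
Distribution of brain-ovary Pearson r per gene over 16 gynes (left; genes, log scale; red, adjusted p under 0.05), and r in the treatment not used for the choice (middle and right; percent of genes; grey, all 8613 tested genes; red outline, genes with positive r and p under 0.01 in the other treatment). The red outlines lie to the right of the grey, with medians of 0.590 and 0.519 against 0.114 and 0.006.

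Some gene models were near 0 in some gynes and present in others, and both organs of a gyne were mostly in the same state. Genes were selected without use of the pairing, as those with at most 2 of 32 libraries between 0.3 and 3 CPM and at least 2 gynes on each side in each organ. There were 5 such genes, which gave 80 gene-by-gyne pairs of libraries. In 75 pairs both organs were in the same state (one-sided p = 1e-05, the floor of 100000 permutations), in 0 pairs they were in opposite states, and in 5 pairs a library fell between the limits. Of these 5 genes 2 are lettered models (identifiers that end in a letter), whose counterpart of the same number opposes them over gynes in both organs, so a low state there can stand beside a high level of the counterpart. Without lettered models, 3 genes remained, with 45 of 48 pairs matching and 0 opposite (one-sided permutation p = 3e-05). Of the 5 genes 2 passed the count filter in both organs and 1 was among the 101. With limits of 0.1 and 1 CPM, 136 of 144 pairs matched and 1 was opposite. With limits of 0.5 and 5 CPM, 61 of 64 matched and 0 were opposite.

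**Figure D3:**
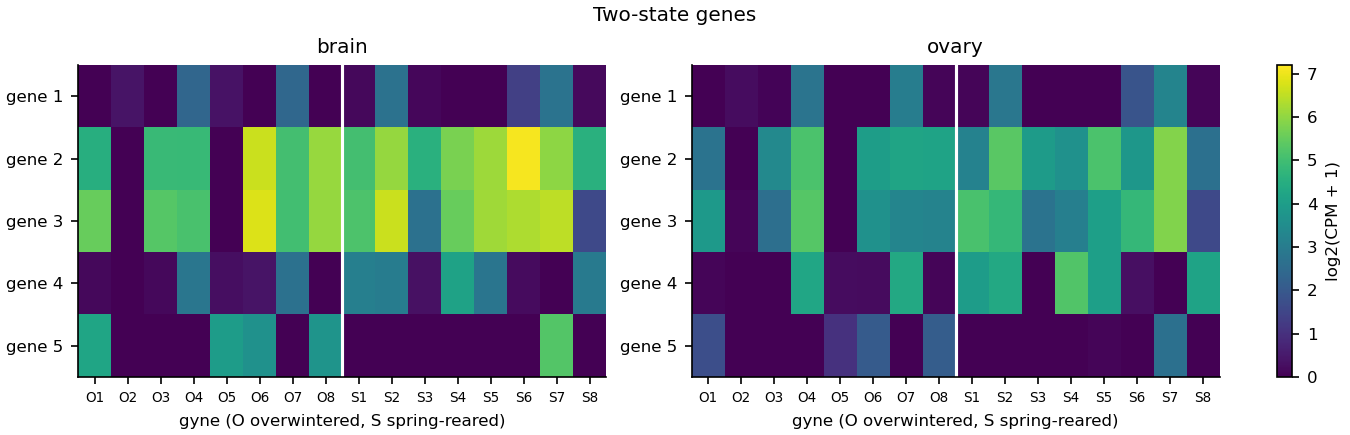
Level, as log2(CPM + 1), of the 5 two-state genes (rows) in the brain (left) and ovary (right) of each gyne (O, overwintered; S, spring-reared). By the limits of 0.3 and 3 CPM, brain and ovary of a gyne were both low (dark) or both high in 75 of 80 pairs. In 0 pairs they were in opposite states.

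The only two-state gene past the threshold for its correlation, SINVBB1_09587, was near 0 in both organs of overwintered gynes 2 and 5 and present in all the others. In the 8 overwintered brains its level was 44.7, 0, 38.7, 33.9, 0, 112.6, 31.4 and 65.3 CPM, and in the ovaries of the same gynes 13.7, 0.063, 5.14, 38.5, 0, 11.5, 8.77 and 8.37 CPM. In gynes 2 and 5 these were 0 and 0 counts in brain and 1 and 0 counts in ovary. In the spring-reared gynes the brain held 35.2, 98.4, 5.46, 45.5, 71.7, 79.2, 88.9 and 1.99 CPM and the ovary 34.1, 26.9, 5.71, 7.7, 15.9, 27, 55.6 and 2.02 CPM. Spring-reared gynes 8 and 3 were the lowest and next lowest of their treatment in brain and in ovary. Over 16 gynes r was 0.926 (permutation p = 0.00039, adjusted p = 0.0361) and rho 0.717 (permutation p = 0.0049, adjusted p = 0.215). Without overwintered gynes 2 and 5, r was 0.716 (permutation p = 0.0127). The adjusted p was above 0.05 in 14 of 16 fits without 1 gyne, up to 0.146 without spring-reared gyne 8, while r stayed between 0.888 and 0.956. A further two-state gene, 2 numbers on in the identifiers, was at 0 CPM in the same 4 libraries and between 5.27 and 135.9 CPM in every other library.

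The highest r among the called genes that are not two-state belonged to SINVBB1_12429b, at 0.978 (permutation p = 0.0002, adjusted p = 0.0224), with rho = 0.656 (permutation p = 0.0205, adjusted p = 0.391). Its level in overwintered brains was 12.5, 10.9, 12.5, 6.89, 11.3, 12, 5.21 and 10.8 CPM, with 24.4, 32.4, 31.6, 15.2, 40.6, 33, 19.1 and 28.1 CPM in the ovaries of those gynes. In spring-reared gynes the brain held 8.42, 4.72, 11.8, 0, 5.92, 13.2, 10.6 and 5.57 CPM and the ovary 12.5, 17.2, 37.3, 0, 16.3, 33.4, 34.5 and 17.9 CPM. Spring-reared gyne 4 had 0 counts in both organs and gave 81.5% of r. Without it r was 0.758 (permutation p = 0.00455, adjusted p = 0.173), and the call was lost in 9 of 16 fits without 1 gyne. The remaining gynes fell into a high and a middle set that were the same gynes in both organs.

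These levels mirrored those of a second gene model with the same number and the letter a. The a model took between 0 and 2.53% of the summed CPM of both models in the brains of 9 gynes and between 0 and 0.662% in their ovaries. In 6 gynes it took 46.8% to 60.1% in brain and 48.8% to 54.6% in ovary. In spring-reared gyne 4 it took 100% in both organs. The summed level of the models stayed between 10.6 and 16.8 CPM in brain and between 24.4 and 40.8 CPM in ovary, and no gyne changed set between organs. Reads that mapped to more than 1 place were counted apart from the genes and left out. The level of each single model is therefore uncertain if the models are near-identical. Which sequences the models hold is not known here.

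**Figure D4:**
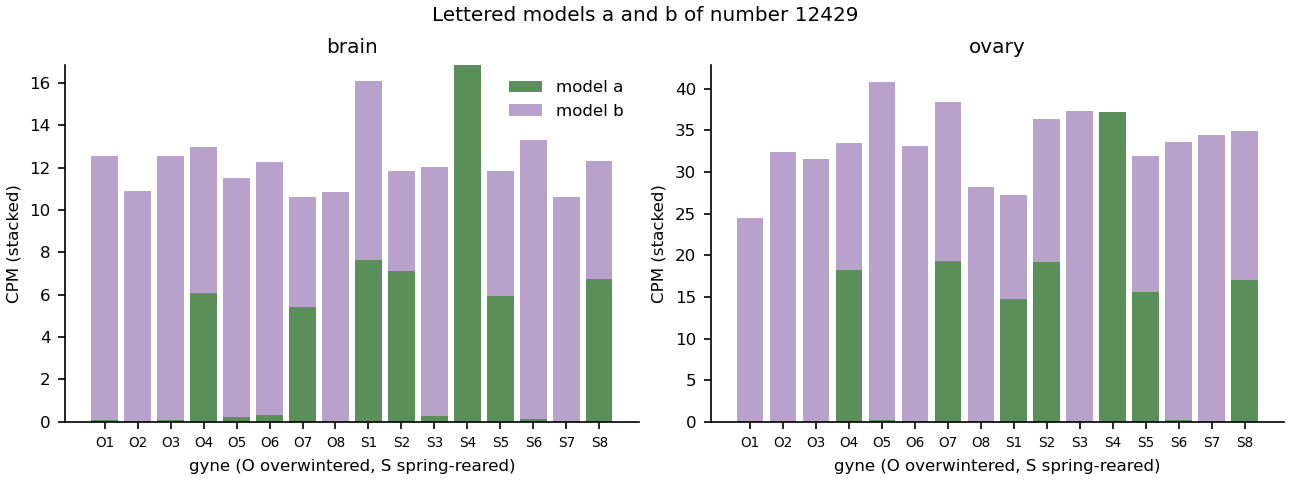
Level in CPM of the gene models a (green) and b (violet) that share the number of SINVBB1_12429b, stacked, in the brain (left) and ovary (right) of each gyne (O, overwintered; S, spring-reared). Spring-reared gyne 4 holds only model a, 6 gynes hold both at 46.8% to 60.1% of model a in brain and 48.8% to 54.6% in ovary, and the other 9 hold almost only model b.

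Gene models with such a letter were frequent among the positive genes. Of 65 tested genes whose identifier ends in a letter 16 (24.6%) were positive, with a median r of 0.441, against 85 of 8548 (0.994%) of the others, with a median of 0.046. For some numbers both lettered models were among the 16, so these are not 16 independent genes. Of 1553 lettered identifiers in all, 65 were tested. The lettered class was noticed in the data and has no test. Leaving out the lettered genes left 80 positive and 2 negative genes. Numbers with exactly 2 lettered models of at least 1 CPM on average in each organ were 12. In 7 of these the models opposed each other over gynes in both organs, with a median correlation of -0.716 in brain (-0.794 to -0.331) and -0.659 in ovary (-0.774 to -0.495). In those 7 the log2 ratio of the models in brain correlated with that in ovary at a median of 0.978 (0.895 to 0.997), and in the other 5 at 0.789 (-0.00687 to 0.962). These correlations are over 16 gynes that share library and depth between models.

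A negative correlation was called for 3 genes. The threshold allows a share of false calls among the 104 called genes, and these 3 can be among them. At an unadjusted p under 0.05, 207 genes (2.4%) were negative. SINVBB1_12442, at 56.3 CPM on average in brain and 23.5 CPM in ovary, had r = -0.679 (permutation p = 0.00017, adjusted p = 0.0203) and rho = -0.803 (permutation p = 0.00046, adjusted p = 0.0566). In overwintered gynes 1 to 8 its level was 82.5, 58.9, 42.1, 72.8, 52, 47.3, 73.1 and 64.9 CPM in brain and 15.7, 28.2, 41, 26.7, 31.9, 27.1, 28.9 and 29.4 CPM in ovary. In spring-reared gynes it was 49.9, 18.4, 45.8, 66.5, 41.6, 62.9, 58.7 and 63.7 CPM in brain and 19, 23.1, 18.9, 17.2, 20.9, 15.8, 17.9 and 14 CPM in ovary. Overwintered gyne 1 had the highest brain and lowest ovary of its treatment, overwintered gyne 3 the lowest brain and highest ovary, and spring-reared gyne 2 likewise. Without overwintered gyne 3 and spring-reared gyne 2, r was -0.662 (permutation p = 0.00746). The adjusted p was 0.09 without overwintered gyne 3 (r = -0.641), 0.0665 without spring-reared gyne 2 (r = -0.751) and 0.0713 without spring-reared gyne 6 (r = -0.666; permutation tests).

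SINVBB1_00647 was the second, at 98.5 CPM on average in brain and 436.2 CPM in ovary. In overwintered gynes its brain level was 106, 85.2, 83.7, 100.9, 84.7, 96.1, 103.9 and 99.4 CPM and its ovary level 351, 434.3, 465.4, 439, 744.7, 464.7, 414.6 and 392.3 CPM. In spring-reared gynes these were 112.6, 88.9, 92.9, 69.1, 111.3, 150.3, 98.6 and 92 CPM in brain and 401.5, 439.7, 416.2, 451.5, 394.1, 370.1, 396.5 and 403.6 CPM in ovary. Spring-reared gyne 6 was highest in brain and lowest in ovary and spring-reared gyne 4 lowest in brain and highest in ovary, and overwintered gyne 5 had by far the highest ovary with a low brain. Over 16 gynes r was -0.483 (permutation p = 1e-04, adjusted p = 0.0151) and rho -0.75 (permutation p = 0.00063, adjusted p = 0.067). Within treatments r was -0.657 (exact permutation p = 0.0279, n = 8) and -0.918 (exact permutation p = 0.00164, n = 8). A linear model of ovary on brain with treatment, adjusted over all genes, called neither negative gene (adjusted p = 0.551 for SINVBB1_00647 and 0.175 for SINVBB1_12442) and gave adjusted p = 0.000166 for SINVBB1_09587 and 1.52e-06 for SINVBB1_12429b. Without spring-reared gynes 4 and 6, r was -0.559 (permutation p = 0.00586), and without either alone r was -0.480 and -0.505 and the adjusted p 0.0646 and 0.0686 (permutation tests). The third negative gene averaged 11.2 CPM in brain and 1.58 CPM in ovary.

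**Figure D5:**
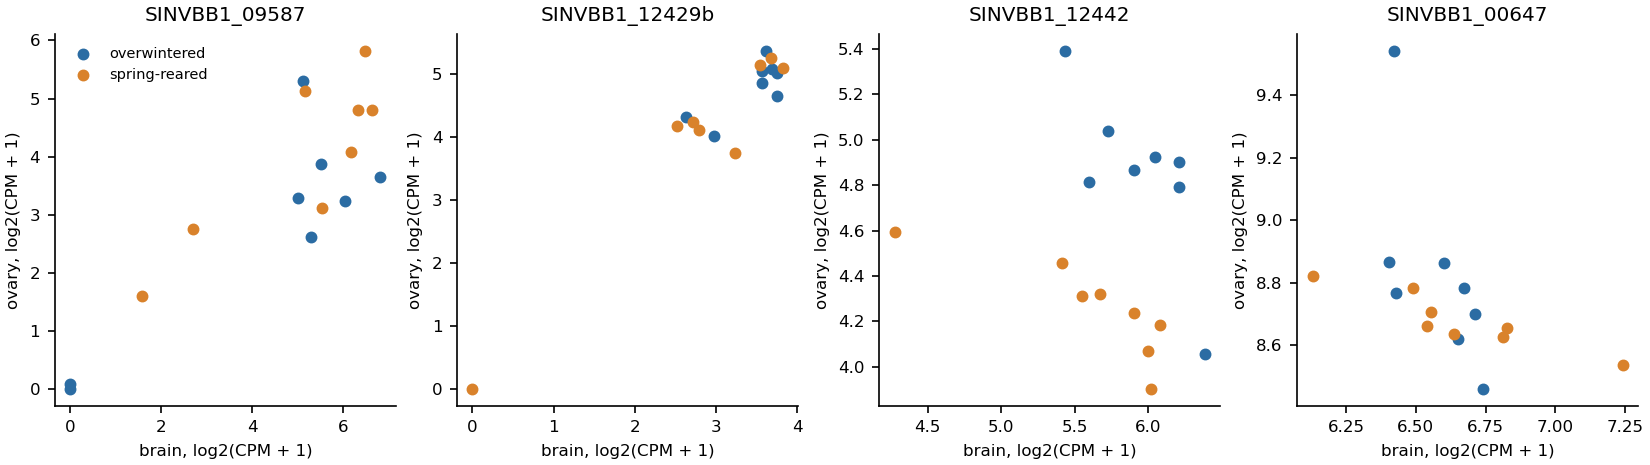
Level in brain (horizontal) against level in ovary (vertical), both as log2(CPM + 1), of the 4 named genes, with 1 point per gyne (blue, overwintered; orange, spring-reared) and axes that differ between panels and do not all start at 0. SINVBB1_09587 and SINVBB1_12429b rise together (r = 0.926 and 0.978, as deviations from group means), each with gynes at or near 0 in both organs, and in SINVBB1_12442 and SINVBB1_00647 the ovary is lower where the brain is higher (r = -0.679 and -0.483).

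The organs of a gyne also deviated together without the called genes. With the 104 called genes left out, the mean own-gyne correlation over the remaining 8509 genes was 0.0833 (permutation p = 3e-05), and with every gene's deviations scaled to the same SD it was 0.0792 over all 8613 (permutation p = 0.00933).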

How the data were processed

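The authors deposited raw counts per gene model. The submitters' processing notes list Trim Galore 0.6.5, STAR 2.7.3a and edgeR. Neither genome build nor annotation is given in the sources used here. Counts without regard to strand were used, so overlapping, antisense and near-identical genes cannot be separated. The 4 lines that name no gene were left out; unmapped reads averaged 17.3% in overwintered brains, 17.2% in spring-reared brains, 3.47% in overwintered ovaries and 3.55% in spring-reared ovaries. The authors' deposited CPM tables served only as a list of 6882 genes in both organs. Depth ran from 9612985 to 23656547 counts per library.

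Log2 CPM were made with edgeR 4.0.16 in R 4.3.3 (TMM factors per organ, prior count 2), and genes were kept that passed filterByExpr in both organs. Deviations from the 4 group means were correlated in numpy 2.4.6, with two-sided permutation p-values from 100000 pairings of brains with ovaries within treatment, all pairings for 8 gynes, and Benjamini-Hochberg adjustment. CPM values in the text use TMM-adjusted library sizes. Where the text gives a permutation test, the number of gynes is 16 unless stated. The method was also run on simulated counts with noise drawn independently for each gene and library. That run held no outlying library, so it does not measure how such libraries affect the calls.

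Pairs come from the colony codes in the labels. Every pair of libraries within a group differed beyond counting noise (lowest chi-square divided by its degrees of freedom 18.7, 112 pairs). The named genes are the called gene of highest r among two-state genes and among the others, and the 2 called genes of lowest r, with at least 5 CPM on average in each organ. The planned marker and pathway lists need gene names and were not run. The comparison, tests, rules and lists were chosen with earlier results of these data known, and the choice of genes in 1 treatment, the lettered models, the classes and the regression on unmapped reads were added after seeing the data. Alternatives were other scalings, filters, prior counts, ranks, thresholds, regressions, blocks and gynes left out.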

Additional observations from a re-analysis of the deposited data

Results flagged for a closer look

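In 2 of the 18 groups of 8 values checked for the named genes and for the own-gyne correlations, 1 value lay far from the rest, and chance alone gives such a value in some groups. SINVBB1_00647 was at 744.7 CPM in the ovary of overwintered gyne 5, where the other 7 overwintered ovaries lay between 351 and 465.4 CPM. Without that gyne its r was -0.676 (permutation p = 0.00055). SINVBB1_09587 was at 38.5 CPM in the ovary of overwintered gyne 4, where the other 7 lay between 0 and 13.7 CPM.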

How the results depend on the processing

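The mean own-gyne correlation kept its direction and its side of the threshold in all 37 alternatives, from 0.0792 to 0.203 (highest permutation p = 0.00933; 0.13 to 0.165 without 1 gyne). Positive genes numbered 72 to 140 in 30 alternatives (79 to 104 without 1 gyne), 63 by Spearman, 52 among the authors' genes, 48 regressed on total counts and genes detected, 40 at a threshold of 0.01 and 7 without the 5 gynes apart. Negative genes numbered 1 with plain library totals, with the abundance trend removed and by the linear model, 0 by Spearman, in the regression on total counts and genes detected, at a threshold of 0.01 and without those 5 gynes, 5 at a threshold of 0.1 and regressed on unmapped reads, and 1 to 6 without 1 gyne (6 without spring-reared gyne 3, 1 without spring-reared gyne 4 or 6, each against 3). With 8 gynes, p cannot be below 2.48e-05 (exact permutation), and 0 positive and 0 negative genes were called in overwintered gynes alone (424 and 259 at an unadjusted p under 0.05) and in spring-reared gynes alone (548 and 109).

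The same replicate number in the other treatment is only a number. With it as a replicate block the own-gyne mean was 0.134 (exact permutation p = 7.44e-05, 8 numbers), the median per-gene r 0.0804 (exact permutation p = 0.134) and 0 genes were called in each direction (488 positive and 165 negative at an unadjusted p under 0.05).

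The median per-gene r, 0.047 and not past the threshold, passed it with the first component removed (0.0794, permutation p = 0.0155), without the 5 gynes apart (0.162, p = 0.00015), in spring-reared gynes alone (0.114, exact p = 0.00451) and without overwintered gyne 1 (0.0957, permutation p = 0.00369); without 1 gyne it ran from 0.0206 to 0.0957. Matches of two-state genes numbered 41 to 71 without 1 gyne, over differing numbers of genes, and 32 of 33 without the 5 gynes apart (permutation p = 0.000556). Component relations past the threshold numbered 0 to 1 without 1 gyne. Uncalled library measures turned sign: the share of the 10 most abundant genes was 0.658 without the 5 gynes apart and -0.289 to 0.197 without 1 gyne (against -0.0373; above 0 without overwintered gyne 5 or spring-reared gyne 6), and ambiguous reads ran from -0.273 to 0.292 without 1 gyne (against 0.0187). Without the 5 gynes apart, genes detected (0.746, permutation p adjusted 0.00652) and ambiguous reads (0.662, 0.0481) passed the threshold. Of the named genes, all kept their sign. Without 1 gyne, SINVBB1_09587 lost its call in 14 of 16 fits, SINVBB1_12429b in 9, SINVBB1_12442 in 3 and SINVBB1_00647 in 2. Each also lost its call with deviations regressed on total counts and genes detected. In the same order of genes, adjusted p was then 0.143, 0.364, 0.729 and 0.523 (permutation tests), and r of SINVBB1_12442 was -0.385. Each call was lost too with the first component removed, without the 5 gynes apart and by Spearman. Each was kept with counts thinned to the smallest library and with deviations regressed on unmapped reads. The causes were not tested.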
